A study of Mus musculus with 4 samples.

Results

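All cells of the pair of libraries from Cd40-deficient mice were examined. The pair sets a neutralizing RANKL antibody against a control IgG in thymic epithelial cells (TECs) that already lacked CD40. Barcodes with at least 200 detected genes and at most 25% mitochondrial UMIs (unique molecular identifiers, counted once per captured transcript) were kept. This left 2082 of 2099 barcodes for Cd40-/- RANKL-Ab and 8591 of 9118 for Cd40-/- Control, together 10673 of the 28055 cells kept in the 4 libraries of the series. The mice were C57BL/6 and 6 weeks old. The Cd40-/- RANKL-Ab group carried the Cd40 deficiency and received the antibody under the skin at 5 mg per kg at 4 weeks of age, 2 weeks before sacrifice, and the Cd40-/- Control group carried the same deficiency and received an isotype control IgG. WT-RANKL-Ab and WT-Control were wild-type mice given the same agents. Cells negative for CD45 and positive for EPCAM were sorted from digested thymi of 3 mice that were pooled before loading, so each group was 1 library, no spread between mice was measured, and no comparison carried a test. An effect of the antibody could therefore not be told apart from a difference between the pools of mice. Intervals are 95% and cover counting error alone, and pairs of values give RANKL-Ab first and Control second.

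RANK, the receptor for RANKL, and CD40 belong to the TNF receptor family and signal through TRAF adaptors to both NF-kB pathways. In the thymus, lymphoid cells present RANKL and CD40 ligand to medullary TECs (mTECs), and these signals drive immature mTECs toward cells that express AIRE and display self-antigens. Interferon-stimulated genes are switched on through STAT2 and IRF family members, and several are expressed by mTECs without infection.

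The cells kept held a median of 7531.5 UMIs in Cd40-/- RANKL-Ab and 6267 in Cd40-/- Control, and the libraries summed to 19153685 and 66295255 UMIs. A total of 205 barcodes occurred in both, 9.85% of the Cd40-/- RANKL-Ab cells and 2.39% of the Cd40-/- Control cells, against 17 to 116 between the other pairs of libraries. In 181 of them the Cd40-/- Control barcode held a small part of the UMIs of the same barcode in Cd40-/- RANKL-Ab. The median part was 2.81%, and most of the 181 lay between 2.42 and 3.19%. Their median was 702 against 2.52e+04 UMIs. Shares that these 181 barcodes move are given with and without them. Cd40 (chr2:165055627-165072948, mm10) was at 4.75 CPM (counts in 1e6 UMIs) in Cd40-/- RANKL-Ab and 5.75 CPM in its control, and at 110.0 and 28.8 CPM in WT-Control and WT-RANKL-Ab. The counts are 3′ tags and the deleted part of Cd40 was not given in the sources used here, so the residual tags were not located within the gene. Tnfrsf11a, which encodes RANK, was at 25.5 against 76.6 CPM over all cells. Transcripts of the ligands Tnfsf11 and Cd40lg were at or below 1.28 and 0.347 CPM in every library of this CD45-negative sort.

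Cells were assigned to 1 class each by the UMIs of fixed marker genes per 10000 UMIs of the cell, with limits set after the data were seen. Names ending in "-like" rest on these markers, and genes kept out of the gates were used as a check: 6 of 8 check genes were over 2-fold higher in the Aire+ mTEC-like class than elsewhere, 7 of 8 in tuft-like, 10 of 10 in cTEC-like, 5 of 8 in progenitor-like and 8 of 8 in thymocyte-like cells. In the Ccl21a-high classes they were 6 of 7 (high in Mgp and Gpx3) and 4 of 7 (low), and the check was weaker for the early Aire-lineage class (2 of 4) and for enterohepatic-like and neuroendocrine-like cells (3 of 5 each). Cells that passed no gate were 2.45% of Cd40-/- RANKL-Ab and 14.4% of Cd40-/- Control. Cells of the Aire+ mTEC-like class were nearly absent from Cd40-/- RANKL-Ab. This class needed at least 2 Aire UMIs and at least 2 per 10000, in cells that passed no other gate. It therefore leaves out other cells with Aire. Early Aire-lineage and cycling Ccl21a-low cells of Cd40-/- Control, counted apart, held medians of 5.49 and 3.22 Aire UMIs per 10000. Aire+ mTEC-like cells were 2 of 2082 (0.0961%, interval 0.0116 to 0.347%) against 750 of 8591 in Cd40-/- Control (8.73%, 8.14 to 9.35%), a 90.9-fold lower share (25.1 to 752). In the wild-type pair the share was 1.24% against 12.1%, 9.75-fold lower. Early Aire-lineage mTEC-like cells, which carry Hes6, Utf1, Tmem158 and Nkx6-2, were 11 (0.528%) against 776 (9.03%), 17.1-fold lower (9.50 to 34.4), against 3.14-fold lower in the wild-type pair. The early class depended on the order of the gates. With the order of all TEC gates reversed it held 153 of 2082 cells against 691 of 8591, a log2 ratio of shares of -0.13. In that order the Aire gate came first, and the early gate came before the progenitor, Ccl21a, cTEC, mimetic, tuft and cycling gates. In the order used here, 67 of the 1019 Ccl21a-high cells of Cd40-/- RANKL-Ab also passed the early gate, against 218 of 2058 in Cd40-/- Control.

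Cycling cells were scarce as well. Among cells with little Ccl21a, which encodes the chemokine that attracts CCR7-bearing thymocytes, those with mitotic transcripts such as Mki67 and Top2a were 4 (0.192%) against 660 (7.68%), 39.99-fold lower (15.5 to 147). Cycling cells with high Ccl21a were 7 (0.336%) against 91 (1.06%), 3.15-fold lower (1.47 to 8.06), whereas in the wild-type pair they were 1.199-fold higher with an interval that included equality (0.903-fold to 1.59-fold). Mimetic-like cells other than tuft-like cells, which express genes of peripheral epithelia, were 14 (0.672%) against 801 (9.32%), 13.9-fold lower (8.22 to 25.5). Within them, enterohepatic-like cells were 1 against 350, microfold-like cells 1 against 203, neuroendocrine-like cells 1 against 72, keratinocyte-like cells 8 against 143 and ciliated-like cells 3 against 33. The ratio of the ciliated-like share had an interval that reached equality (2.67-fold lower, 0.836 to 13.6).

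Tuft-like cells, the chemosensory type marked by Pou2f3, Trpm5 and Avil, did not share this loss when counted as a share of the library. They numbered 62 cells (2.98%, 2.29 to 3.80%) against 269 (3.13%, 2.77 to 3.52%), a share 1.05-fold lower with an interval that included equality (0.795 to 1.41). In the wild-type pair tuft-like cells were 8.98% against 4.39%, 2.04-fold higher. Shares of a library depend on all its classes, so tuft-like cells were also counted per 100 Ccl21a-high cells. On that scale they were lower, at 6.08 (4.63 to 7.87) in Cd40-/- RANKL-Ab and 13.1 (11.5 to 14.9) in Cd40-/- Control. In the wild-type pair they were at 18.0 and 12.8. Whether tuft-like cells were spared thus depended on the scale.

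The classes that took up the library were Ccl21a-high cells, progenitor-like cells and cTEC-like cells. Ccl21a-high cells were 1019 (48.9%) against 2058 (24.0%), 2.04-fold higher (1.89 to 2.20) and 1.45-fold higher in the wild-type pair. Those with high Mgp and Gpx3, genes for a matrix protein that inhibits calcification and a secreted glutathione peroxidase, were 622 (29.9%) against 946 (11.01%), 2.71-fold higher (2.45 to 3.01) and 1.15-fold higher in the wild-type pair. The Ccl21a-high cells low in both were 397 (19.1%) against 1112 (12.9%), 1.47-fold higher (1.31 to 1.65) and 1.67-fold higher in the wild-type pair. With every gate limit halved, the difference in this class was lost, with a log2 ratio of shares of 0.028. Progenitor-like cells, gated on Pdpn, Dcn, Ackr4 and 5 other stromal-type genes, were 248 (11.9%) against 376 (4.38%), 2.72-fold higher (2.31 to 3.20) and 4.51-fold higher in the wild-type pair. cTEC-like cells, which express the cortical proteasome subunit gene Psmb11, were 347 (16.7%) against 689 (8.02%), 2.08-fold higher (1.82 to 2.37), 2.19-fold higher without the shared barcodes and 4.27-fold higher in the wild-type pair. Per 100 Ccl21a-high cells, cTEC-like cells were at 34.1 (30.1 to 38.5) and 33.5 (30.7 to 36.5), and the wild-type pair had 16.4 and 5.58. Progenitor-like cells were at 24.3 (21.1 to 28.0) and 18.3 (16.3 to 20.4) on that scale, and at 15.5 and 5.01 in the wild-type pair. The near-equal cTEC-like values depended on the order of the gates: in reversed order the log2 ratio of shares was 0.88 for cTEC-like cells and 0.44 for Ccl21a-high cells.

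Cells carrying thymocyte transcripts passed the sort in both libraries. Thymocyte-like cells were 206 (9.89%) against 416 (4.84%), 2.04-fold higher and 3.57-fold higher in the wild-type pair. Complexes with thymocyte and cTEC markers together were 101 (4.85%) against 402 (4.68%), and 77 of the 402 were shared barcodes. Without those the share of complexes was 1.26-fold higher (0.994 to 1.57). Cells of the myeloid, parathyroid and erythroid gates were 25, 16 and 4 in Cd40-/- Control and 0 of 2082 in Cd40-/- RANKL-Ab, a count that allows a share of up to 0.144% by a floor of 3 counts and 0.177% by the upper limit of the Clopper-Pearson interval.

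**Figure D1:**
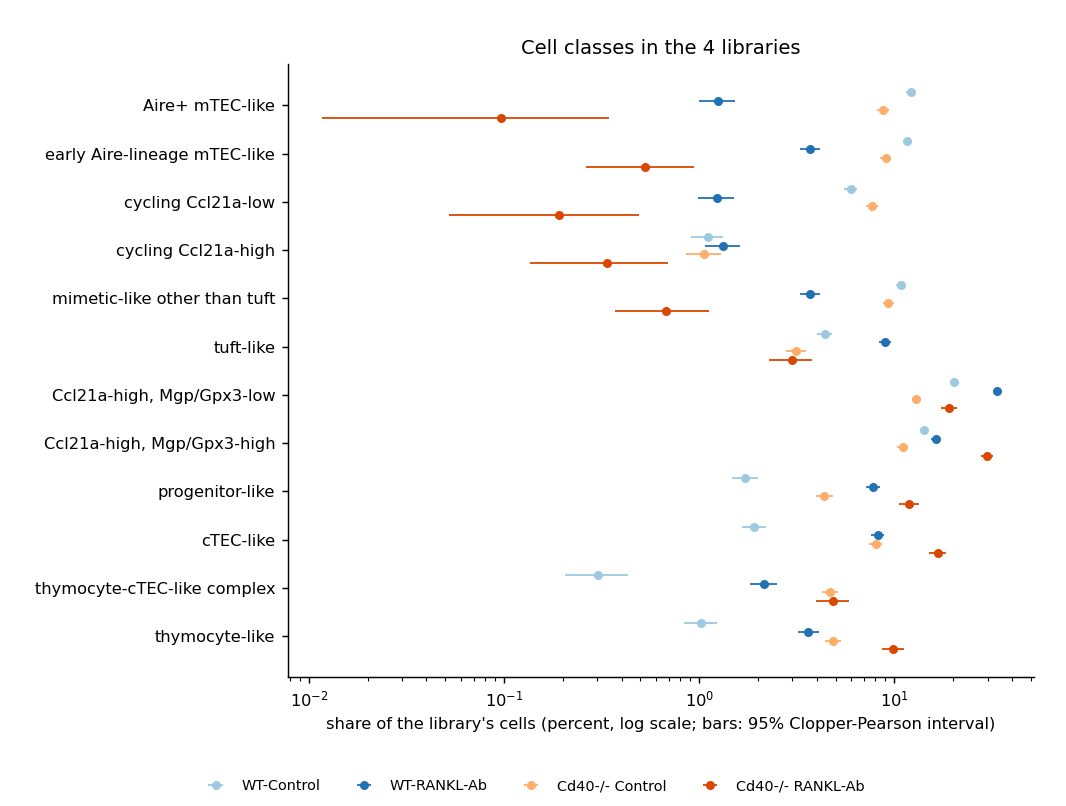
Share of each class among the cells of a library in percent on a log axis, with 95% Clopper-Pearson intervals, for the 4 libraries. The Cd40-/- RANKL-Ab points lie lowest for the Aire+ mTEC-like class (0.0961%) and highest for the Mgp/Gpx3-high Ccl21a-high class (29.9%).

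The Ccl21a-high cells remaining in Cd40-/- RANKL-Ab also leaned further toward progenitor-type transcripts. Of 1019, 524 also passed the progenitor gate (51.4%, 48.3 to 54.5%), against 502 of 2058 in Cd40-/- Control (24.4%, 22.6 to 26.3%), and 12.8% and 10.6% in the wild-type pair. At least 2 Aire UMIs were found in 0 of the 1019, against 2.67% of the 2058, and mitotic cells were 0.682% of all Ccl21a-high cells against 4.23%. The median of Ccl21a itself, a gate gene, was 446 against 230 UMIs per 10000 in the Mgp/Gpx3-high class and 273 against 163 in the Mgp/Gpx3-low class. Ccl21a shares reads with near-identical copies, among them Gm21541, so its level is uncertain.

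Within classes, UMIs were summed over the cells of a library and expressed as CPM. Genes that had 50 or more UMIs in the pair were compared by the log2 ratio of CPM with 10 CPM added, which shrinks ratios of low genes, and a gene at least 2-fold apart on that scale was counted. Folds of single genes are given without the added CPM. In the Mgp/Gpx3-low class, 0.875% of 10289 genes were at least 2-fold higher in Cd40-/- RANKL-Ab and 2.61% at least 2-fold lower. In the Mgp/Gpx3-high class, these were 0.566% and 1.85% of 10073 genes.

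The gene with the lowest ratio in both classes was Ccl11 (chr11:82057823-82062955, mm10), which encodes the chemokine eotaxin. In Mgp/Gpx3-high cells Ccl11 was at 25.8 CPM (131 UMIs) in Cd40-/- RANKL-Ab and 1059 CPM (6107 UMIs) in Cd40-/- Control, 41.0-fold lower (34.5 to 49.1). In WT-RANKL-Ab and WT-Control it was at 163 and 1209 CPM, so the wild-type pair differed by 7.41-fold. With every cell thinned to 2000 UMIs, 2.51% of Mgp/Gpx3-high cells had a Ccl11 UMI (1.41 to 4.11%) against 47.5% (44.1 to 50.9%), and 5.95% against 59.7% before thinning. Thymocyte-like cells, which should lack Ccl11, had a Ccl11 UMI in 0 of 87 and 1.16% of 173 cells at the same depth. In Mgp/Gpx3-low cells Ccl11 was at 18.6 against 667 CPM, 35.9-fold lower (27.8 to 47.1). Thinning left out 25 of 622 and 83 of 946 shallower Mgp/Gpx3-high cells and 119 of 206 and 243 of 416 thymocyte-like cells.

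Ccl8, the neighbouring chemokine gene (chr11:82115185-82116799), was held by 1 UMI in each Ccl21a-high class of Cd40-/- RANKL-Ab. In Cd40-/- Control it had 548 UMIs in 100 Mgp/Gpx3-high cells and 861 UMIs in 98 Mgp/Gpx3-low cells, ratios of 482 (86.1 to 19059) and 394 (70.6 to 15590). Gm8113 was 24.5-fold lower in Mgp/Gpx3-high cells, at 19.7 against 483 CPM. Chil4, a chitinase-like gene, had 3 UMIs against 996 there and 0 against 1078 in Mgp/Gpx3-low cells, at least 165-fold lower by a floor of 3 counts. A single Cd40-/- Control cell held 38.1% of those 1078 UMIs, and Chil4 is uncertain because of its near-identical paralog Chil3. Fabp4 and S100a8 were also among the 6 lowest of the Mgp/Gpx3-low class. Thymocyte-like cells of Cd40-/- Control held them at 460 and 135 CPM, and the part of other cells' RNA in these values was not tested.

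Genes with higher levels were fewer. Igfbp3 (chr11:7206086-7213923), which encodes a secreted binding protein of insulin-like growth factors, was at 223 against 28.6 CPM in Mgp/Gpx3-high cells, 7.81-fold higher (6.62 to 9.25), and at 121 against 20.7 CPM in Mgp/Gpx3-low cells, 5.86-fold higher (4.84 to 7.14). Its wild-type folds were 3.87 and 1.55. After thinning, 28.5% of Mgp/Gpx3-high cells had an Igfbp3 UMI against 5.10%, and 57.6% against 12.4% before it. Klf2, a transcription factor of the Krüppel-like family, was at 408 against 91.2 CPM in Mgp/Gpx3-high cells, 4.48-fold higher (4.06 to 4.93), and 6.04-fold higher (5.35 to 6.84) in Mgp/Gpx3-low cells. Stmn2, a regulator of microtubules best known from neurons, was 4.52-fold higher (98.1 against 21.7 CPM) and 7.26-fold higher (242 against 33.3 CPM) in these classes. Slc46a2, a solute carrier first described in thymic stroma, was 3.82-fold higher in Mgp/Gpx3-low cells (466 against 122 CPM).

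**Figure D2:**
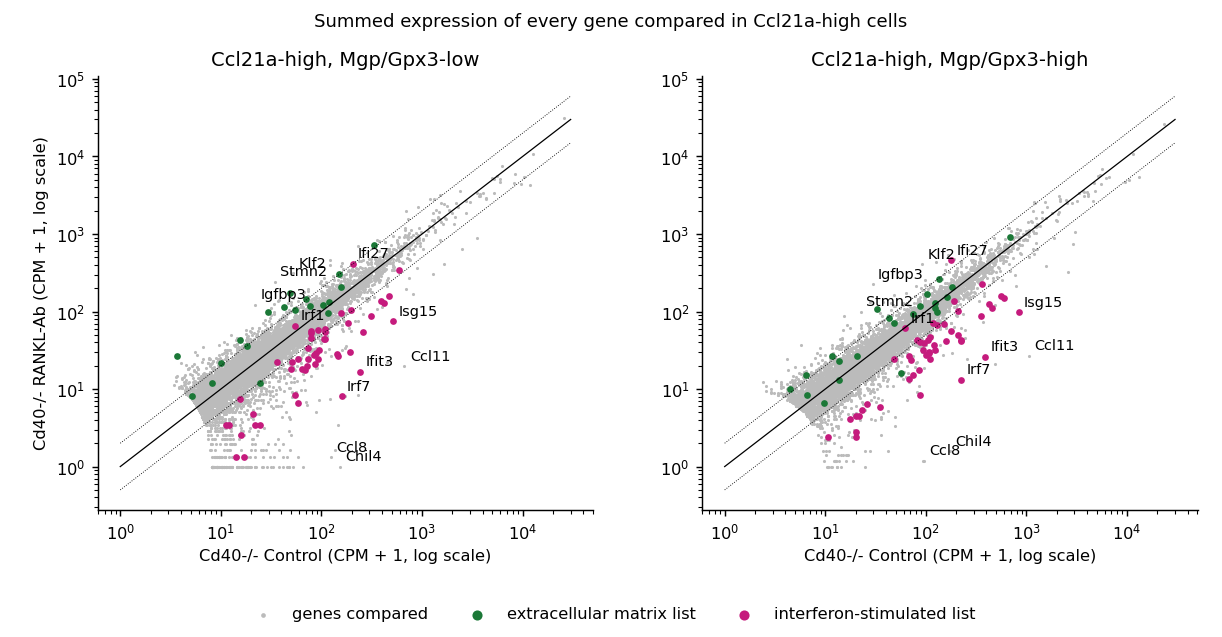
Summed CPM plus 1 of every gene compared in Cd40-/- RANKL-Ab (vertical) against Cd40-/- Control (horizontal), log axes, for the Ccl21a-high classes low (left) and high (right) in Mgp and Gpx3. Solid line, equality; dotted lines, 2-fold; most coloured points of the interferon-stimulated list lie below the line, and Ccl11 is at 25.8 against 1059 CPM in the right panel.

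Most interferon-stimulated genes were at least 2-fold lower in Ccl21a-high cells. In the Mgp/Gpx3-high class, 38 of the 49 listed genes with enough UMIs were at least 2-fold lower and 1 was at least 2-fold higher. The shares over all genes were 1.85% lower and 0.566% higher. The median log2 ratio was -1.32 against -0.04 over all genes, and -0.52 for the list in the wild-type pair. In the Mgp/Gpx3-low class 33 of 50 were at least 2-fold lower and 0 higher, against 2.61% and 0.875% of all genes. Their median was -1.26 against -0.00 over all genes, and -0.50 in the wild-type pair. The list, at 52 genes the longest of the 22 examined, was chosen with earlier results of these data known. A shorter list, tissue-restricted self-antigens, had 4 of 6 and 5 of 7 members at least 2-fold lower in the Mgp/Gpx3-high and Mgp/Gpx3-low classes. The shares over all genes were 1.85% and 2.61%. Its medians were -0.92 and -1.18, and -0.61 and -1.20 in the wild-type pair. In thymocyte-like cells 3 of 3 members were lower, against 2.54% of all genes, with a median of -2.71. The part of other cells' RNA in the self-antigen values of Ccl21a-high cells was not tested.

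The promoters of 4 listed genes are shown because the first pair hold the interferon-stimulated response element, the third had the largest fold of the list in Mgp/Gpx3-high cells and lacks the element in this window, and the fourth hardly differed. Each line gives the 150 bases before the RefSeq start on build GRCm38.p6, written in the direction of the gene, with matches to GAAANNGAA on either strand in capitals.
Isg15, chr4:156200819-156200968, reverse strand: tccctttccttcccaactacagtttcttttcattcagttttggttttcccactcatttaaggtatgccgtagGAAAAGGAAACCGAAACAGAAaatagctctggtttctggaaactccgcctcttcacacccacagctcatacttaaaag
Ifit3, chr19:34583379-34583528, forward strand: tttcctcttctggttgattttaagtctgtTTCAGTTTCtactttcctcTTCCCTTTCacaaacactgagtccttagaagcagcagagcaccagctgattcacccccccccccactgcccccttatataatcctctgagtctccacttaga
Irf7, chr7:141266425-141266574, reverse strand: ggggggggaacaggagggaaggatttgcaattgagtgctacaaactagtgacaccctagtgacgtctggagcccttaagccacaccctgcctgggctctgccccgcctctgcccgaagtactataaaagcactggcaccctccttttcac
Irf1, chr11:53769864-53770013, forward strand: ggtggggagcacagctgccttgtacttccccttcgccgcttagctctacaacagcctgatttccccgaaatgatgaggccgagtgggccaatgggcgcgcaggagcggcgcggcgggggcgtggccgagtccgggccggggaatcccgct
In Isg15 the capitals cover 3 overlapping matches between 78 and 58 bases before the start. In Ifit3 they are a pair of matches on the opposite strand, at 121 to 113 and 102 to 94 bases before the start. Irf7 and the shown promoter of Irf1, which has 2 in the table, hold 0. These counts describe letters in a window and say nothing of a factor's binding there.

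Isg15, which encodes a ubiquitin-like modifier, was at 97.7 CPM in Mgp/Gpx3-high cells of Cd40-/- RANKL-Ab and 837 CPM in those of Cd40-/- Control, 8.57-fold lower (7.81 to 9.42), and at 551 and 1585 CPM in the wild-type pair. Ifit3, whose product blocks viral translation in complex with other IFIT proteins, was at 25.3 against 386 CPM, 15.3-fold lower (12.8 to 18.4), and at 197 and 426 CPM in the wild-type pair. Its near-identical copy Ifit3b, 11.8-fold lower, may share reads with it. Irf7, the transcription factor that amplifies interferon responses, was at 12.2 against 222 CPM, 18.1-fold lower (14.05 to 23.8), and at 184 and 395 CPM in the wild-type pair. For each of these genes Cd40-/- RANKL-Ab was the lowest of the 4 libraries and both control libraries were the highest. Irf1, a factor that responds to interferon gamma and NF-kB, was at 59.98 against 61.6 CPM, a ratio within counting error (1.03-fold lower, 0.878 to 1.2003).

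Other parts of the pathway were lower as well. In Mgp/Gpx3-high cells Stat2, a signal transducer of type I interferon receptors, was at 26.6 against 99.4 CPM, 3.73-fold lower (3.09 to 4.53). Irf9, which binds DNA with STAT2, was 1.94-fold lower (1.70 to 2.21) and 1.16-fold higher in the wild-type pair. The sensors Ifih1 and Ddx58 were 3.32-fold and 2.43-fold lower, and Oasl2 and Eif2ak2, which restrain viral RNA, were 3.54-fold and 3.73-fold lower. The GTPases Igtp and Iigp1, which are induced strongly by interferon gamma, were 5.09-fold and 4.13-fold lower, and Bst2, which tethers virions, was 4.04-fold lower.

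Ifi27, which encodes a mitochondrial interferon-induced protein, went the other way. It was at 458 against 178 CPM in Mgp/Gpx3-high cells, 2.57-fold higher (2.38 to 2.76), and at 414 against 203 CPM in Mgp/Gpx3-low cells, 2.04-fold higher. In cTEC-like cells Ifi27 was 2.01-fold lower, at 340 against 684 CPM. Of the interferon receptor genes, in Mgp/Gpx3-high cells Ifnar1 was 1.07-fold, Ifnar2 1.55-fold and Ifngr1 1.23-fold higher. Of 8 interferon ligand and receptor genes with enough UMIs, 0 were at least 2-fold apart in either Ccl21a-high class. With 0.566% of all genes higher and 1.85% lower in the Mgp/Gpx3-high class and 0.875% and 2.61% in the Mgp/Gpx3-low class, a count of 0 is close to the share over all genes.

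The lower level was a property of most cells and not of a few. Thinned to 2000 UMIs, Mgp/Gpx3-high cells of Cd40-/- RANKL-Ab held a median of 5 UMIs of the interferon-stimulated list, with quartiles of 3 and 7, and those of Cd40-/- Control held 15, with quartiles of 11 and 21. In the wild-type pair the medians were 10 and 18. In Mgp/Gpx3-low cells they were 4 and 12 in the Cd40-/- pair and 8 and 14 in the wild-type pair. An Irf7 UMI was found in 1.01% of thinned Mgp/Gpx3-high cells (0.370 to 2.18%) against 35.2% (32.0 to 38.5%), and in 7.72% against 63.6% before thinning. At 2000 UMIs, thymocyte-like cells had Irf7 in 1.15% (1 of 87 cells, 0.029 to 6.24%) and 5.202%, and before thinning in 2.91% and 6.97%. The thinned share in Mgp/Gpx3-high cells of Cd40-/- RANKL-Ab lay within that interval, which rests on 1 cell. Isg15 was found in 13.1% against 68.7% of thinned Mgp/Gpx3-high cells and Ifi27 in 58.3% against 25.5%.

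**Figure D3:**
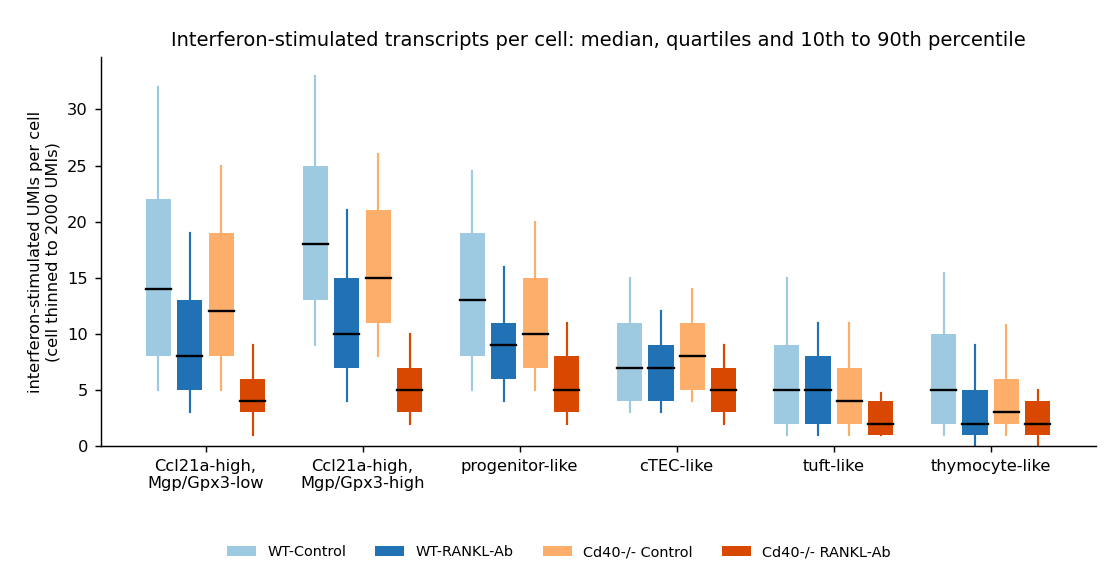
UMIs of the interferon-stimulated list per cell after thinning to 2000 UMIs, by library, in 6 classes, as median, quartiles and 10th to 90th percentiles over cells. In the Mgp/Gpx3-high class the medians are 5 in Cd40-/- RANKL-Ab, 15 in its control, and 10 and 18 in the wild-type pair.

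The list was lower outside Ccl21a-high cells too, to differing degrees. In progenitor-like cells 22 of 41 members were at least 2-fold lower, against 1.48% of all 7846 genes compared, with a median log2 ratio of -0.98 and -0.33 in the wild-type pair. There Ifit3 was at 38.0 against 209 CPM, Irf7 at 17.3 against 94.7 CPM and Isg15 at 191 against 523 CPM. In tuft-like cells 15 of 26 members were at least 2-fold lower, against 4.31% of 5365 genes, with a median of -1.02 and -0.20 in the wild-type pair. In cTEC-like cells 7 of 44 were, against 1.04% of 9560 genes, with a median of -0.52 and -0.07 in the wild-type pair. Cxcl9, a chemokine induced by interferon gamma, was at 1.59 against 35.7 CPM in cTEC-like cells, 22.4-fold lower (10.1 to 61.9). In thymocyte-like cells 5 of 29 were lower, against 2.54% of 6144 genes, with a median of -0.41 and -0.60 in the wild-type pair.

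**Figure D4:**
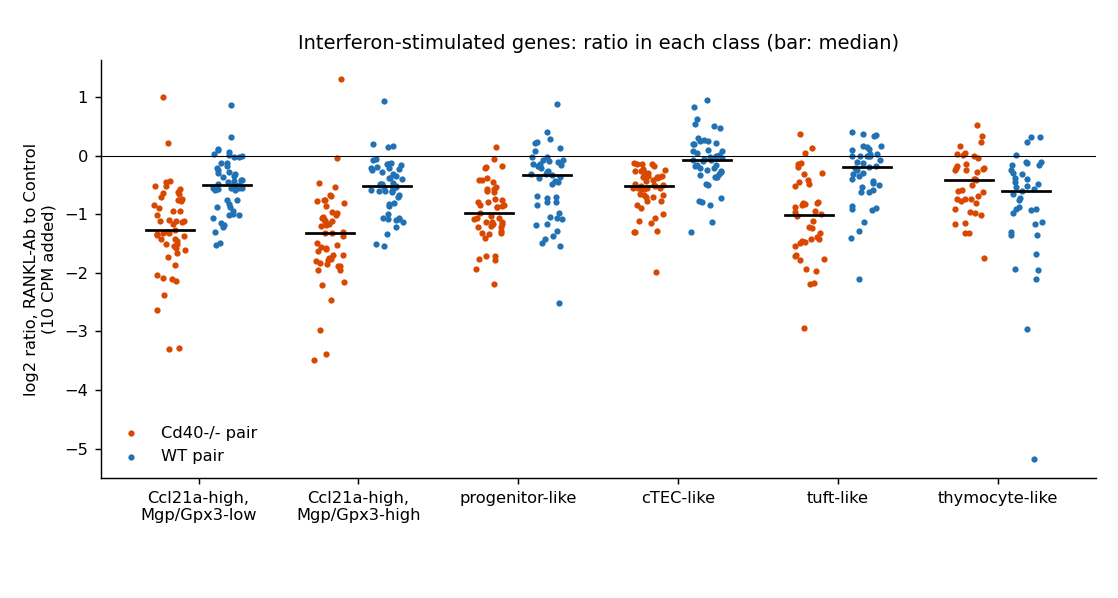
Log2 ratio of RANKL-Ab over Control with 10 CPM added for each interferon-stimulated gene (points) in 6 classes, for the Cd40-/- pair and the wild-type pair, with the median as a bar. The Cd40-/- medians are -1.26, -1.32, -0.98, -0.52, -1.02 and -0.41, from Mgp/Gpx3-low to thymocyte-like cells, and the wild-type medians lie nearer 0 in the first 5 classes.

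The interferon-stimulated response element GAAANNGAA, on either strand, lay between 250 bases before and 50 after the RefSeq start of 9.76% of 27025 genes. It was in 8.77% of the 7938 genes compared in Mgp/Gpx3-high cells that had a promoter in the table, in 40.4% of the 141 at least 2-fold lower and in 7.50% of the 40 at least 2-fold higher. Leaving out the interferon-stimulated list, 36 of 112 lower genes still held it (32.1%). In Mgp/Gpx3-low cells the shares were 8.73% of genes compared, 20% of lower genes and 13.1% of lower genes without the list, and in progenitor-like cells 8.73%, 23.8% and 12.5%. The NF-kB-type motif GGGANTTCC was in 2.95% of the genes compared and 4.26% of the lower genes (6 of 141) in Mgp/Gpx3-high cells, and in 2.94% and 3.50% (7 of 200) in Mgp/Gpx3-low cells. In progenitor-like cells these shares were 2.90% and 7.50% (6 of 80), and 7.81% of lower genes without the interferon-stimulated list (5 of 64).

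Of 15 NF-kB subunits and feedback targets, 0 were at least 2-fold apart in either Ccl21a-high class, again close to the low share over all genes. The median log2 ratio was -0.06 in both, against -0.04 over all genes in the Mgp/Gpx3-high and -0.00 in the Mgp/Gpx3-low class. In Mgp/Gpx3-high cells Nfkb2, a subunit gene of the alternative pathway, was at 69.4 against 41.3 CPM, 1.68-fold higher (1.42 to 1.99), Nfkb1 was 1.46-fold lower (1.299 to 1.65), and Relb was at 83.3 against 86.2 CPM. Tnfrsf11a, lower over all cells, was at 39.9 against 41.4 CPM in these cells and at 59.8 against 72.0 CPM in Mgp/Gpx3-low cells. Tnfrsf11b, which encodes the decoy receptor osteoprotegerin, had 6 against 127 UMIs in Mgp/Gpx3-low cells, 9.69-fold lower (4.33 to 26.9) and 9.51-fold lower in the wild-type pair. Tnfrsf11b was also a check gene of microfold-like cells, which were 1 against 203. The part of other cells' RNA in the Tnfrsf11b value was not tested.

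Antigen presentation genes were modestly lower. MHC class I and immunoproteasome genes had a median log2 ratio of -0.38 in Mgp/Gpx3-high cells. The median over all genes was -0.04, and that of the list in the wild-type pair -0.32. There 1 of 16 was at least 2-fold lower and 0 higher, against 1.85% and 0.566% of all genes. The lower gene was B2m, the class I light chain, at 5019 against 10411 CPM, 2.07-fold lower (2.04 to 2.10) and 1.76-fold lower in the wild-type pair. MHC class II genes had a median of -0.33 in both classes. In the wild-type pair it was 0.03 in Mgp/Gpx3-high and -0.18 in Mgp/Gpx3-low cells. H2-Oa, a subunit of the peptide-editing modulator DO, was 2.18-fold lower (1.91 to 2.49) in Mgp/Gpx3-high cells. Cd74, the invariant chain, was at 10750 against 11424 CPM there. Ctss, the protease that trims the invariant chain, was at 13.6 against 55.3 CPM, 4.06-fold lower (3.12 to 5.35). Ctss is also a myeloid gene, and 7 myeloid markers summed to 3.95 against 36.2 CPM in this class, with 1 of 7 at 0 in each library, a part in the Ctss value that was not tested. Pdcd1lg2, which encodes the checkpoint ligand PD-L2, was at 9.86 against 85.1 CPM, 8.63-fold lower (6.44 to 11.8), and Cd274, which encodes PD-L1, was 2.64-fold lower (2.16 to 3.25). Their wild-type folds were 3.58 and 1.53, also lower. In Mgp/Gpx3-low cells Pdcd1lg2 was 11.7-fold lower (7.42 to 19.6).

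Structural and growth factor genes differed in both Ccl21a-high classes, and whether the classes differed from each other was not tested. In Mgp/Gpx3-low cells the extracellular matrix list had a median log2 ratio of 0.73, and 0.16 in the wild-type pair. There 6 of 19 members were at least 2-fold higher and 0 lower, against 0.875% and 2.61% of all genes. Fn1, fibronectin, was at 171 against 48.1 CPM, 3.55-fold higher (3.09 to 4.08), and Sparc was at 726 against 331 CPM. Postn, periostin, was at 25.7 against 2.69 CPM and Ltbp4, which binds latent TGF-beta, at 97.2 against 28.5 CPM. Fibroblast markers summed to 41.2 against 29.4 CPM in this class, with 1 and 0 of 5 at 0, and their part in the matrix result was not tested. In Mgp/Gpx3-high cells the list median was 0.28, and 0.17 in the wild-type pair. There 1 of 22 members was at least 2-fold higher and 1 lower, against 0.566% and 1.85% of all genes. Ltbp4 was 3.45-fold higher and Col14a1 3.66-fold lower. Krt14, a basal keratin, was at 3195 against 1491 CPM in Mgp/Gpx3-low cells, 2.14-fold higher (2.09 to 2.20), and Krt15 was 3.44-fold lower there and 5.79-fold lower in Mgp/Gpx3-high cells. Wnt4, a Wnt ligand of thymic epithelium, was at 231 against 96.1 CPM in Mgp/Gpx3-low cells, 2.40-fold higher (2.16 to 2.67) and 1.03-fold lower in the wild-type pair.

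In the list of BMP, activin and IGF genes, 2 of 12 members were at least 2-fold higher and 3 lower in Mgp/Gpx3-high cells, against 0.566% and 1.85% of all genes. In Mgp/Gpx3-low cells 1 of 13 was higher and 2 lower, against 0.875% and 2.61% of all genes. The list medians were -0.03 and 0.04 in these classes, close to the -0.04 and -0.00 over all genes. Id1 and Id3, inhibitors of helix-loop-helix factors that respond to BMP, were lower in both classes. In Mgp/Gpx3-high cells Id1 was at 120 against 486 CPM, 4.06-fold lower (3.72 to 4.44), whereas it was 1.06-fold higher in the wild-type pair, and Id3 was 2.62-fold lower (2.47 to 2.78). Igfbp5 was 2.20-fold lower there (2.11 to 2.30) and 2.11-fold higher in the wild-type pair. Igf1 was 2.68-fold higher in Mgp/Gpx3-high cells, at 69.6 against 26.0 CPM, and 3.45-fold, 4.77-fold and 42.8-fold lower in progenitor-like, cTEC-like and tuft-like cells, the last on 1 against 148 UMIs.

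**Figure D5:**
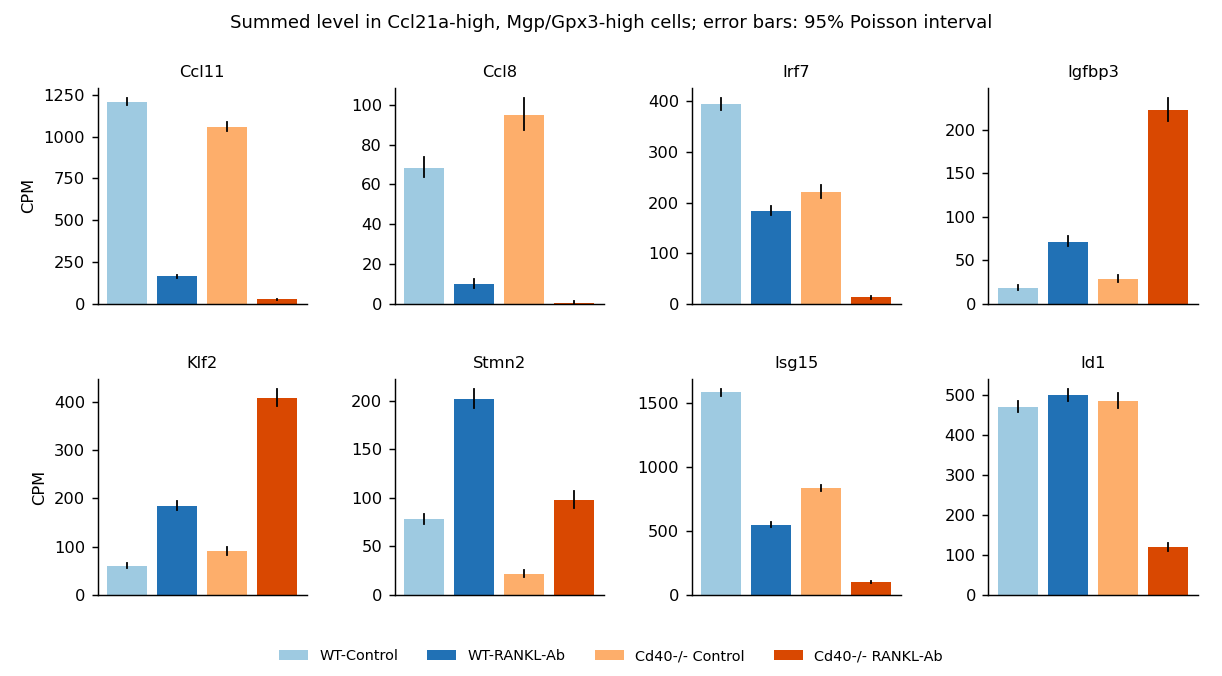
CPM of named genes in the 4 libraries, 1 bar per library from 0, with exact Poisson 95% intervals, for 8 genes in the Mgp/Gpx3-high Ccl21a-high class. Ccl11, Irf7, Isg15 and Id1 are lowest in Cd40-/- RANKL-Ab (25.8, 12.2, 97.7 and 120 CPM), and Igfbp3 and Klf2 are highest there (223 and 408 CPM).

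Some genes with high ratios in epithelial classes were not limited to epithelium. Gm12840 was at 87.0 against 14.4 CPM in Mgp/Gpx3-high cells, 6.04-fold higher (4.77 to 7.74), and 1.36-fold lower in the wild-type pair. Gm12840, Grcc10 and Gm11808 were also higher in thymocyte-like cells of Cd40-/- RANKL-Ab, at 60.004 against 10.8, 75.5 against 28.7 and 246 against 68.2 CPM. These 3 genes were among the 6 with the highest ratios in 1 or more epithelial classes.

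In progenitor-like cells, 0.344% of genes were at least 2-fold higher. Krt19, a keratin of simple epithelium, was at 176 against 65.1 CPM, 2.70-fold higher (2.20 to 3.33). Among lower genes, Ubd, which encodes the ubiquitin-like modifier FAT10, was at 15.8 against 602 CPM, but also at 30.002 against 654 CPM in thymocyte-like cells. Wfdc18, Srgn and Gm13305 were at 379, 341 and 140 CPM in Cd40-/- Control and at 452, 571 and 282 CPM in its thymocyte-like cells. Iapp rested on 4 cells of Cd40-/- Control, of which 1 held 96.5% of its 228 UMIs. Myeloid markers, a list of 7 genes, summed to 4.93 against 81.7 CPM in this class, with 4 and 0 at 0. Ctss, also a myeloid gene, was at 3.45 against 32.1 CPM, and Ctsh, a lysosomal protease gene, at 2.46 against 65.6 CPM, 26.6-fold lower (11.1 to 83.4). The part of other cells' RNA in these values was not tested. B2m was 2.24-fold lower (2.15 to 2.33).

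cTEC-like cells differed least among the epithelial classes in the share of genes past 2-fold, with 0.272% higher and 1.04% lower. Of 10 cTEC genes outside the gate, 0 were at least 2-fold apart, as the low share over all genes of this class would give. Ccl25, the thymocyte-attracting chemokine, was at 8257 against 9079 CPM and the Notch ligand gene Dll4 at 96.2 against 99.6 CPM. Stmn2 was at 59.5 against 2.22 CPM, 26.8-fold higher (14.7 to 54.4) on 224 UMIs in 29 of 347 cells and 11 UMIs in 5 of 689. Krt5 was at 560 against 246 CPM, 2.28-fold higher (2.13 to 2.45), and Acta2 and Tagln, contractile genes that Ccl21a-high cells express, were 3.38-fold and 3.24-fold higher. Acta2 and Tagln were also at 255 against 77.2 and 142 against 47.3 CPM in thymocyte-like cells. Ccl19, a CCR7 ligand gene, was at 80.8 against 28.5 CPM, 2.84-fold higher (2.32 to 3.49) and 1.66-fold lower in the wild-type pair.

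Tuft-like cells, with 62 against 269 cells, had 1.36% of genes at least 2-fold higher. Lrrc26, a channel subunit gene of secretory epithelia, was at 157 against 23.3 CPM, 6.72-fold higher (4.41 to 10.4), with UMIs in 27 of 62 and 26 of 269 cells. Cldn10, a tight junction gene, was at 104 against 15.3 CPM and Ctsl, the lysosomal protease, at 1183 against 447 CPM, 2.65-fold higher (2.36 to 2.98). Ctsl is on the list of cTEC genes outside the gate, of which 3 of 4 were at least 2-fold higher in tuft-like cells. The list median was 1.34 there, against -0.03 over all genes. The part of other cells' RNA in the Ctsl value was not tested. Cartpt and Ccl25 were higher on account of few cells: 1 cell held 85.1% of 94 Cartpt UMIs, and 1 held 75.2% of 165 Ccl25 UMIs. Ly6a, a surface antigen induced by interferon, was at 11.5 against 339 CPM, 29.4-fold lower (12.5 to 91.0) and 1.66-fold lower in the wild-type pair. Lypd8 and the chemokine gene Ccl5 had 0 UMIs against 276 and 243, at least 26.6-fold and 23.4-fold lower. Of those UMIs, 46.4% and 46.5% lay in 1 Cd40-/- Control cell each. Zbp1, a nucleic acid sensor, had 1 against 126 UMIs, and Cd74 was 2.07-fold lower (1.90 to 2.26).

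Thymocyte-like cells served as a measure of RNA from other cells. Csn2, Saa3 and S100a8, expressed by mTECs with promiscuous or mimetic programmes, had 0 UMIs in the 206 thymocyte-like cells of Cd40-/- RANKL-Ab and 377, 430 and 225 UMIs in the 416 of Cd40-/- Control. Of the Saa3 UMIs, 70.2% lay in 1 cell. Over all cells the same genes were at 3.65, 1.46 and 3.76 CPM against 665, 388 and 466 CPM. The lower shares of mimetic-like cells and less of this RNA per droplet moved together, and cannot be told apart for these genes in summed counts. Cd74 was 2.65-fold lower (2.51 to 2.80) in thymocyte-like cells, and 5 of 9 MHC class II genes were at least 2-fold lower there, against 2.54% of all genes. Genes at least 2-fold higher in thymocyte-like cells were 0.505%, among them the histone gene Hist1h2ap at 1821 against 555 CPM. In the thymocyte-cTEC-like complexes, 0.218% of 9638 genes were at least 2-fold higher and 0.259% lower, and the lowest rested on single cells of Cd40-/- Control, as for Bpifa1 with 438 of 441 UMIs in 1 cell. Over all cells, 0.981% of 16918 genes were at least 2-fold higher and 4.4% lower, with Igfbp3 (102 against 14.4 CPM), Tagln (1059 against 232 CPM) and Slc46a2 (380 against 88.2 CPM) among the 6 highest.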

How the data were processed

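Single-cell RNA-seq of sorted thymic epithelial cells was measured in 4 libraries, of which the Cd40-/- pair was described and the wild-type pair set beside it. The deposited values are counts of UMIs per gene and cell, made by the authors with Cell Ranger on mm10; the file header and the study's methods give version 5.0.1 and the submitters' processing notes 5.1. No normalization had been applied. Cells kept summed to 19153685 and 66295255 UMIs in Cd40-/- RANKL-Ab and Cd40-/- Control. Of 31053 gene IDs, 30934 were found in GENCODE M21.

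Barcodes with under 200 genes or over 25% mitochondrial UMIs were left out. No doublet caller was run, and thymocyte-cTEC complexes were kept as a class. Gates were read in a fixed order, per 10000 UMIs (thymocyte 20, cTEC 80, Ccl21a 50, Mgp and Gpx3 20, progenitor 15, cycling 10, early 10, tuft 15, microfold 25, neuroendocrine 15, ciliated 20, keratinocyte 40, enterohepatic 60, Aire 2). The Aire gate was read last and also needed at least 2 Aire UMIs. In Cd40-/- Control, 34 of 750 Aire+ mTEC-like and 196 of 776 early cells lay within 1.25 times the limit. UMIs were summed per class and library. Genes with at least 50 UMIs in the pair were compared, leaving out gate, mitochondrial and ribosomal protein genes by their Rpl and Rps names; list medians used members with at least 20. Named genes were the 6 highest and 6 lowest log2 ratios per class, plus list members past 2-fold and genes of the pathway; some of these are not reported here. Shares carry Clopper-Pearson intervals, levels exact Poisson intervals and ratios exact conditional binomial intervals, all at 95%; against a count of 0, a floor of 3 counts was used. The members, gates and 22 gene lists were chosen with earlier results of these data known. With 1 library per group no test was made. Counting error is the only error covered. Alternatives were another mitochondrial limit, added CPM, UMI minimum, averaging, TMM scaling (edgeR 4.0.16), gate limits and gate order. Scripts were written in Python 3.11.15 with scipy 1.17.1 for intervals, numpy 2.4.6, matplotlib 3.10.9 for plots and pandas 2.3.3, and were tested on simulated data. Promoters came from RefSeq on GRCm38.p6.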

Additional observations from a re-analysis of the deposited data

Results flagged for a closer look

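Of 91 gene and class results compared, 13 had log2 ratios of RANKL-Ab over Control (10 CPM added) of opposite signs in the Cd40-/- and the wild-type pair. All were among the 6 highest ratios of a class, and the genes had been picked by their Cd40-/- ratio alone. With 1 library per group the differences were not tested.

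In Mgp/Gpx3-low Ccl21a-high cells, Fdps, a gene of sterol synthesis, was at 1.67 in the Cd40-/- pair and -0.43 in the wild-type pair, and Grcc10 at 1.67 and -0.66. In Mgp/Gpx3-high cells, Gm12840 was at 1.99 and -0.27. In progenitor-like cells Grcc10 was at 1.38 and -0.44, and Gm11808 at 1.36 and -0.78. In cTEC-like cells Gm11808 was at 1.52 and -0.89. In tuft-like cells Ccl25 was at 2.17 and -0.46, with 75.2% of its Cd40-/- RANKL-Ab UMIs in 1 cell.

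In thymocyte-cTEC-like complexes, Hist1h2ap, a replication-dependent histone gene, was at 1.64 and -2.06, Gm11808 at 1.41 and -0.95, Polr2l at 1.32 and -0.46, and Uqcr11, a subunit of respiratory complex III, at 1.26 and -1.25. In thymocyte-like cells Gm11808 was at 1.71 and -1.13 and Hist1h2ap at 1.70 and -0.75.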

How the results depend on the processing

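None of the results changed sign as a called value under the alternatives run. Under the alternatives chosen at the start, 71 class shares moved by less than their interval and 16 by more, 111 counts of genes past 2-fold stayed within 1.5 times and 49 did not, 809 list medians stayed and 27 moved, and 896 values of single genes stayed and 64 moved.

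Log2 ratios of shares that moved were as follows. For the early Aire-lineage class they were -6.06 with gate limits halved, -3.21 doubled and -0.13 in reversed order, and for mimetic-like cells -2.36, -4.89 and -4.89, with -2.86 in thinned cells. For Ccl21a-high Mgp/Gpx3-low cells they were 0.028, 1.04 and 0.24. With limits doubled and in reversed order they were 1.66 and 0.73 for Mgp/Gpx3-high cells, 1.24 and 0.44 for both Ccl21a-high classes, and 1.70 and 1.85 for progenitor-like cells.

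Counts higher and lower with 1 CPM added were 569 and 3375 in all cells, 278 and 601 in Mgp/Gpx3-low, 204 and 364 in Mgp/Gpx3-high, 68 and 221 in progenitor-like, 80 and 189 in cTEC-like, 121 and 361 in tuft-like cells and 55 and 96 in complexes, with 62 higher in thymocyte-like cells. With 50 CPM they were 43 and 167, 25 and 55, 16 and 54, 5 and 27, 7 and 12, 30 and 79, 5 and 5, and 7 and 43 in the same order. With at least 100 UMIs, lower genes were 57 in progenitor-like, 60 in cTEC-like and 67 in thymocyte-like cells, and tuft-like cells had 47 and 115. Without a minimum, lower genes were 216 in progenitor-like and 375 in thymocyte-like cells, and tuft-like cells had 172 and 529. As means of cells' CPM, 109 genes were higher in all cells, 43 in cTEC-like cells, and 95 higher and 241 lower in thymocyte-like cells. With gate limits doubled, lower genes were 61 in progenitor-like, 20 in cTEC-like and 146 in tuft-like cells, 15 in complexes and 39 in thymocyte-like cells.

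The interferon-stimulated medians were -1.62, -1.95, -1.17 and -0.72 with 1 CPM and -0.71, -0.76, -0.56 and -0.24 with 50 CPM in Mgp/Gpx3-low, Mgp/Gpx3-high, progenitor-like and cTEC-like cells, and the extracellular matrix median in Mgp/Gpx3-low cells was 1.00 with 1 CPM. More CPM added shrinks every ratio by construction; other causes were not tested.

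Leaving out the 181 shared barcodes, which was tried only after seeing the data, moved none of 13 shares, 16 counts, 84 list medians and 96 genes past these limits. TMM scaling shifted log2 ratios by 0.12 at most, in progenitor-like cells. The Aire+ share in thinned cells and cycling Ccl21a-high cells in reversed order had 0 Cd40-/- RANKL-Ab cells and were not run, nor were lists with under 3 genes or non-TEC classes over TECs alone. No paired analysis was possible because each group was 1 library. With 62 tuft-like cells, single-gene intervals there are wide.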
